A study of Mus musculus with 12 samples.

Results

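The integrin and laminin genes were followed in gastrocnemius muscle of mice with facioscapulohumeral muscular dystrophy-like disease. Members were all genes whose symbol is Itga, Itgb, Lama, Lamb or Lamc followed by a number (with or without a final b), which gave 31 of the 37748 genes in the deposited table: 12 integrin alpha subunits, 8 integrin beta subunits and 11 laminin chains. All 31 had at least 5 counts in at least 3 of the 12 mice and were among the 18502 genes tested. RNA-seq libraries came from 4 groups of 3 mice, all 13 weeks old, with 1 library per mouse, so p-values measure the spread between these mice. Control mice were ACTA1-MCM/+, which carry a tamoxifen-inducible Cre (MerCreMer) driven in skeletal muscle fibers, and received no tamoxifen (TMX). FLExD mice (FLExDUX4/+) carried only the conditional human DUX4-fl transgene, which needs Cre for full expression, and also received no TMX; the labels describe this group as mild pathology. Both transgenes were present in mice of the moderate and severe models (FLExDUX4/+;MCM/+), which were sampled on day 9 after TMX, given as 1 injection of 5 mg/kg in the moderate model and 2 injections of 10 mg/kg in severe mice. Recombination is mosaic in this system, so a muscle holds nuclei with and without the recombined transgene. Because no control mouse received TMX, the effect of TMX and that of DUX4-fl cannot be told apart here, and both models are compared with the same 3 control mice.

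Integrins are transmembrane receptors made of an alpha and a beta subunit that tie the cytoskeleton to the matrix around the cell. Laminins are trimers of an alpha, a beta and a gamma chain and form the scaffold of basement membranes. The adult muscle fiber is wrapped in a basement membrane whose main laminin holds the chains Lama2, Lamb1 and Lamc1, laminins with Lamb2 are concentrated at the neuromuscular junction, and the main laminin-binding integrin of the fiber pairs Itga7 with Itgb1. Loss of human LAMA2 or ITGA7 causes congenital muscle disease, and Lama1 is mainly a chain of embryonic basement membranes.

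Levels below are in CPM, which are counts relative to the library size after adjustment by TMM factors, used to compare a gene between mice; TPM, which are per transcript length and scaled to the same total in every library, were used to compare genes within a mouse. Libraries held 23796902 to 29136403 counts, at which 3 counts are worth 0.0681 to 0.154 CPM. A gene was called when edgeR's quasi-likelihood test gave a Benjamini-Hochberg adjusted p under 0.05 over all genes tested together with a log2 fold change of 0.5 or more in size. TMM factors were 0.710 to 0.765 in control and FLExD mice, 1.06 to 1.13 in moderate and 1.69 to 1.85 in severe mice, so directions are relative to this scaling. Over all genes, the log2 fold change had a median of 0.05 in moderate and 0.10 in severe mice with TMM, 0.24 and 0.70 in log2(TPM + 1), and 0.65 and 1.39 with library size alone. Adult fast fiber markers summed to 121959 to 167420 CPM in controls, 54966 to 66738 in moderate and 8023 to 14526 in severe mice, with 6 of 6 called lower in severe mice and none at 0. Regenerating fiber markers (Myh3, Myh8 and Myog) summed to 15.8 to 21.9, 320.4 to 574 and 1207 to 1720 CPM, and all 3 were called higher in both models. In whole muscle, fewer cells of a type and less RNA per cell cannot be told apart, and the part of these marker changes in the values below was not tested.

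In the moderate model, 13 of the 31 members lay above control and 4 below it by the test, against 23% and 15.1% of all genes tested. Severe mice had 12 members called higher and 5 lower, against 31.3% and 25.9% of all genes. The median log2 fold change of the members was 0.29 in moderate and 0.38 in severe mice, or 0.22 and 0.38 with Lama1, at 0 counts in controls, set against a floor of 3 counts. Members called higher in both models included Itgb1, Itga5, Itga2b, Itgb3, Itgb2, Itgb7, Lama1, Lamb1 and Lamc1, 2 were called lower in both (Lama3 and Lamc3), and Itga7 was called lower in moderate but higher in severe muscle. Among these, Lama1 passed the count filter only through the severe mice. A further 10 were called in neither with TMM: Itga3, Itga6, Itgb4, Itga10, Itga11, Itgb8, Lama2, Lama4, Lama5 and Lamb3. Between the models, 6 members were called higher in severe than in moderate muscle (Itga7, Itga5, Itgb5, Itgb2, Lama1 and Lama5) and 4 lower (Itga2, Itgb6, Itga9 and Lamb2), against 16.2% and 17.3% of all genes. With library size alone the split became 20 higher and 1 lower in moderate mice, 26 and 1 in severe mice, and 16 and 1 between them. Of all 18502 genes, this scaling called 9046 higher and 773 lower in moderate mice. It called 13514 and 1105 in severe mice, and 10011 and 845 between the models. In log2(TPM + 1) tested with limma the split of the members was 12 and 1, 22 and 0, and 12 and 1. For all genes it was 5285 and 746, 10935 and 999, and 8152 and 633.

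**Figure D1:**
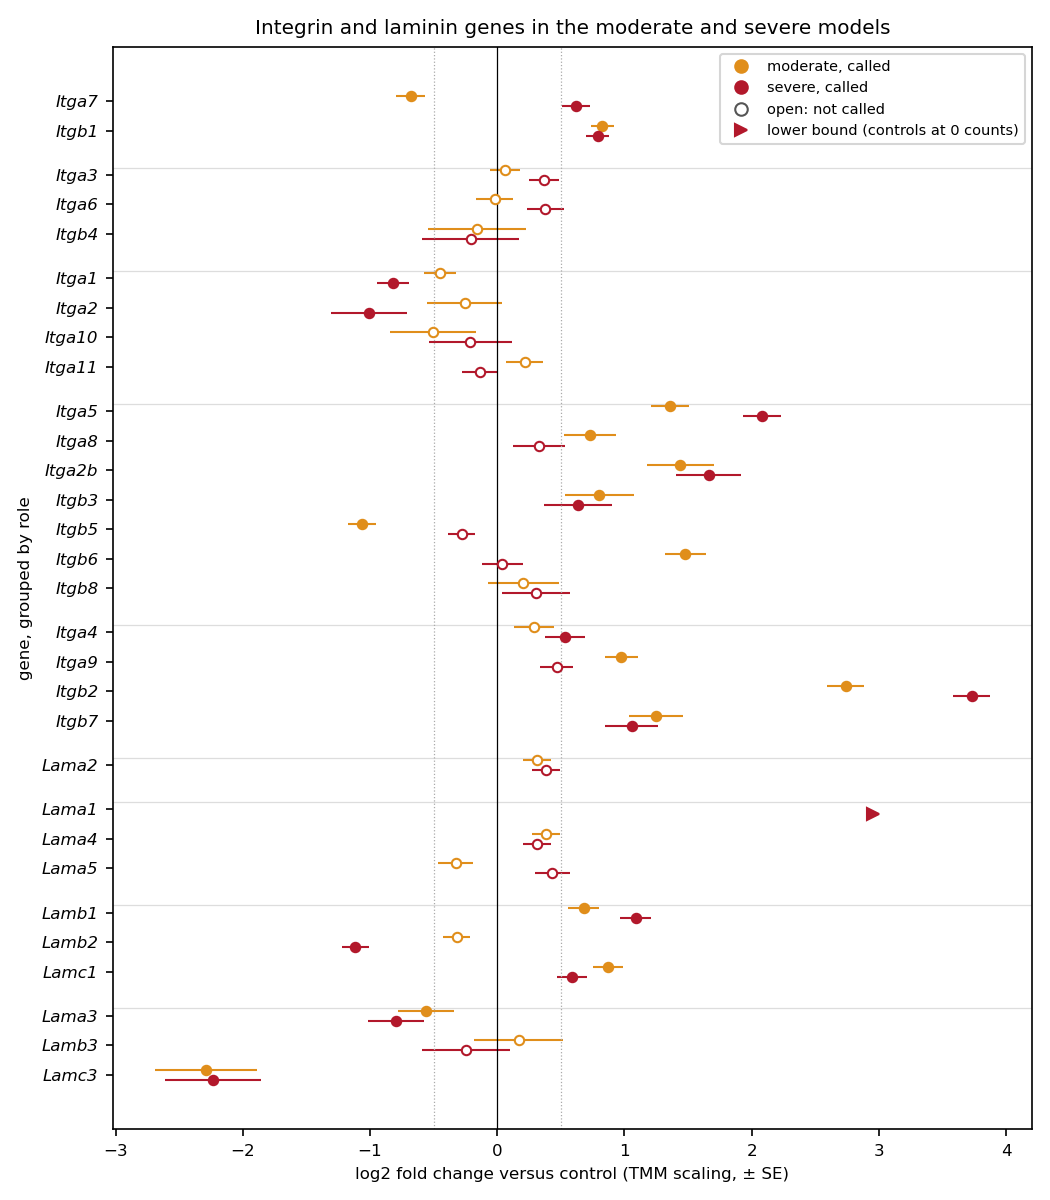
Log2 fold change against control (x axis, TMM scaling, bars are standard errors) of the integrin and laminin genes described here (y axis, grouped by role) in moderate mice (orange) and severe (red) models, n = 3 mice a group, with filled points for called genes and a lower bound for Lama1 in severe mice. Itga7 lies on opposite sides of 0 in the 2 models, and with library size alone the severe values of Lamb2, Itga1, Itga2 and Lama3 turn to above 0.

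Itga7, the alpha subunit of the fiber's laminin receptor, was called in opposite directions in the 2 models. Its level was 69.7, 75.5 and 81.3 CPM in the 3 controls, 76.8, 79.3 and 78.6 in FLExD mice, 49.5, 50.4 and 41.3 in the moderate model and 135, 104 and 108 in severe mice. The 3 moderate mice lay below every control and the 3 severe mice above every control. The log2 fold change was -0.68 (SE 0.11, adjusted p = 0.000122) in moderate and 0.62 (SE 0.11, adjusted p = 0.000148) in severe mice. Severe exceeded moderate muscle 2.46-fold, by 1.30 on the log2 scale (SE 0.11, adjusted p = 1.32e-06). The moderate decrease depended on the scaling, at -0.20 in log2(TPM + 1) and -0.09 with library size alone, neither called; relative to the median of all genes it was -0.74 to -0.44 over the 4 scalings. The severe increase was 1.74 and 1.92 under those scalings, and without severe mouse 1047 it was 0.50 under TMM and no longer reached the fold threshold. Satellite cells also express Itga7, and the markers Pax7 and Myf5 were called higher in both models, with a sum of 2.06 to 3.27 CPM in controls, 6.96 to 8.83 in moderate and 14.5 to 21 in severe mice; their part in the Itga7 values was not tested.

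Itgb1, the common beta subunit of Itga7 and most other alpha subunits listed here, rose in both models. It stood at 192, 196 and 202 CPM in controls, 354, 327 and 363 in moderate and 335, 333 and 350.2 in severe mice, without overlap between controls and either model. The log2 fold changes were 0.83 (SE 0.09, adjusted p = 2.45e-06) and 0.79 (SE 0.09, adjusted p = 1.52e-06). Severe and moderate muscle differed by -0.04 (SE 0.09, adjusted p = 0.761), a value that turned to 0.66 and was called with library size alone. Itgb1 had the highest TPM of all 20 integrin subunits in every mouse.

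Ratios within a library do not depend on the scaling between libraries. Itga7 reached 34.2 ± 2.18 TPM (SD, n = 3) per 100 TPM of Itgb1 in controls, 34.5 ± 1.19 in FLExD mice, 12.2 ± 1.49 in moderate and 30.0 ± 4.52 in severe mice. The moderate values of 10.5 to 13.2 lay under all others, and the severe values of 27.3 to 35.2 overlapped those of controls. Among laminin-binding alpha subunits, Itga7 made up 67.7% ± 3.33 of the summed TPM of Itga3, Itga6 and Itga7 in controls, 68.3% ± 3.35 in FLExD mice, 58.4% ± 1.75 in moderate and 72.9% ± 0.768 in severe mice (SD, n = 3). Neither model overlapped the controls, with differences of -9.33 and 5.18 percentage points (exact two-sided permutation p = 0.1 for each, the smallest that 3 against 3 mice can give, and 0.2 adjusted over 12 such tests). Taken over summed counts, which are not per length, the severe difference was 3.66 points with an exact permutation p of 0.3.

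The other laminin-binding subunits were not called with TMM. Itga3 and Itga6 are alternative alpha partners of Itgb1, found in epithelia and vessels among others. Itga3 had log2 fold changes of 0.06 (SE 0.12) and 0.37 (SE 0.12) in moderate and severe models, and Itga6 of -0.02 (SE 0.15) and 0.38 (SE 0.15). The severe values had adjusted p of 0.0123 and 0.0336 but were under the fold threshold. In the other scalings both were called higher in severe mice, Itga3 at 0.99 in log2(TPM + 1) and 1.66 with library size alone, and Itga6 at 1.33 and 1.68. In moderate mice they were called with library size alone, at 0.66 and 0.58. Itgb4, the partner of Itga6 in hemidesmosomes, overlapped controls in both models, with 2.20 to 6.37 CPM among the 3 moderate mice alone.

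**Figure D2:**
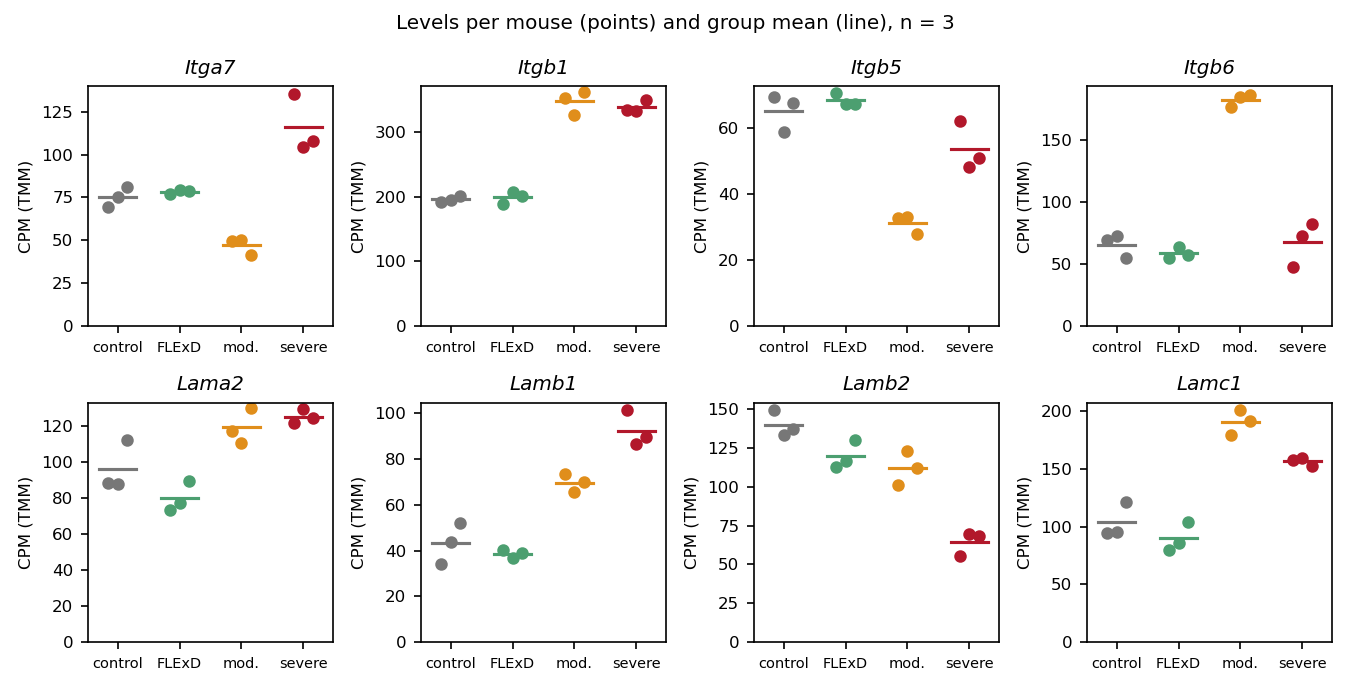
Level in CPM on TMM-adjusted library sizes (y axis, from 0) of 8 members in each mouse (points) with the group mean (line), for control, FLExD, moderate and severe muscle (x axis, n = 3 each). Itga7 and Itgb5 are lowest and Itgb6 highest in the 3 moderate mice, and Lamb1 is higher and Lamb2 lower in severe than in control muscle, a Lamb2 difference of -1.11 that turned to 0.17 with library size alone.

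Of 7 subunits that bind fibronectin and other RGD ligands, 5 were called higher and 1 lower in moderate mice, and 3 higher and 0 lower in severe mice, against 23% and 15.1% of all genes in moderate and 31.3% and 25.9% in severe mice. Higher and lower calls with library size alone numbered 6 and 0 in moderate and 7 and 0 in severe mice. Of all 18502 genes that scaling called 9046 and 773 in moderate mice, and 13514 and 1105 in severe mice. Itga5, the fibronectin receptor subunit, was 6.23, 5.80 and 7.15 CPM in controls, 15.3, 19.0 and 14.9 in moderate and 33.1, 25.1 and 23.1 in severe mice. The 3 groups did not overlap. Its fold was 2.56 in moderate mice (adjusted p = 2.63e-06), 4.23 in severe mice (adjusted p = 9.41e-09) and 1.65 between the models (adjusted p = 0.000482), and it was called higher under all 4 scalings. Itga2b, the alpha subunit of the platelet fibrinogen receptor, had 8 to 14.5 counts in controls and 43 to 79.7 in the models, with log2 fold changes of 1.44 (SE 0.26, adjusted p = 0.000362) and 1.66 (SE 0.26, adjusted p = 3.99e-05). Its beta partner Itgb3 had 11 to 33 counts in controls and called values of 0.80 (adjusted p = 0.0236) and 0.64 (adjusted p = 0.0481). The moderate call of Itgb3 was lost without control 1127 (0.47), control 1246 (0.80), moderate 1236 (0.75) or moderate 1308 (0.78). The severe call was lost without control 1127 (0.32), control 1246 (0.66) or any of severe 1047 (0.58), 1066 (0.72) and 1079 (0.63). Of 3 platelet markers tested, Pf4 was called higher and Gp1ba lower in both models and Ppbp was not called. Gp9, also listed, did not pass the count filter. Their sum was 7.11 to 9.37 CPM in controls, 14.9 to 21 in moderate and 30.3 to 34.4 in severe mice, and none of the 3 was at 0. The sum rose through Pf4 alone, with means of 3.63, 14.7 and 31.4 CPM in these groups. The part of these markers in the Itga2b and Itgb3 values was not tested.

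Itgb5 and Itgb6 are alternative beta partners of the alphaV subunit, the first a vitronectin receptor and the second an activator of latent TGF-beta. Itgb6 was 69.2, 72.1 and 55.0 CPM in controls, 176, 184 and 186 in moderate and 47.6, 72.5 and 81.7 in severe mice. Only the moderate mice stood apart from controls, by 1.48 on the log2 scale (SE 0.16, adjusted p = 4.48e-06), and the severe value was 0.04 (SE 0.16, adjusted p = 0.84). Severe lay below moderate muscle by -1.44 (SE 0.16, adjusted p = 1.12e-05), which was still called at -0.74 in log2(TPM + 1) and -0.75 with library size alone, although the severe value against control was called higher under both of these, at 1.14 and 1.32. Itgb5 was 69.5, 58.8 and 67.7 CPM in controls, 32.8, 33.2 and 27.8 in moderate and 62.4, 48.2 and 51.1 in severe mice. All 3 moderate mice lay below every other mouse. It fell by 1.06 on the log2 scale in the moderate model (SE 0.11, adjusted p = 1.44e-06), a decrease called at -0.56 in log2(TPM + 1) and not called at -0.46 with library size alone. Its severe value of -0.28 (adjusted p = 0.0318) turned to 0.88 and 1.02 under these scalings.

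The 2 subunits also changed rank within libraries. Of the TPM of the 8 numbered beta subunits, Itgb5 took 22.5% ± 1.66 in controls, 6.42% ± 0.633 in moderate and 11.9% ± 1.61 in severe mice (SD, n = 3). Itgb6 took 15.3% ± 2.39, 25.3% ± 0.770 and 9.89% ± 2.62 (SD, n = 3). Itgb5 exceeded Itgb6 in TPM in all 6 control and FLExD mice, Itgb6 exceeded Itgb5 in all 3 moderate mice, and in severe mice Itgb6 was the higher in mouse 1079 only. With TMM Itga8, an RGD-binding partner of Itgb1, was called in the moderate model alone, at 0.73 (SE 0.20, adjusted p = 0.0084), with 53.9 to 82.4 counts in controls. Without control 1349 it was 0.58 (adjusted p = 0.0515) and without moderate 1331 0.57 (adjusted p = 0.0533). Its severe value was called higher at 0.63 in log2(TPM + 1) and 1.62 with library size alone. Itgb8, another activator of TGF-beta, was not called in either model with TMM, but was called higher with library size alone, at 0.80 in moderate and 1.59 in severe mice, and in severe mice in log2(TPM + 1), at 0.52.

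Among the numbered integrins, the highest fitted increase in both models was that of a leukocyte subunit. Itgb2, the beta chain of the leukocyte integrins, was 4.74, 3.40 and 3.55 CPM in controls, 29.6, 23.1 and 25.1 in moderate and 57.0, 52.4 and 45.5 in severe mice. The 3 groups did not overlap, and the fold was 6.67 in moderate mice (adjusted p = 3.34e-09) and 13.3 in severe mice (adjusted p = 3.93e-11), with 1.99 between them (adjusted p = 1.56e-05). Its alpha partners Itgam, Itgax and Itgal, whose letter names fall outside the rule, were called higher too, by 4.16 (SE 0.15), 5.55 (SE 0.30) and 2.87 (SE 0.29) on the log2 scale in severe mice. Controls held only 8.82 to 9.66 counts of Itgax and 7 to 10 of Itgal, so the size of these folds is uncertain. Itgad, a further partner, was called lower at -1.93 (SE 0.28) and stayed below 0 under all 4 scalings. It had few counts, at 16.2 to 19.4 in controls and 8.82 to 9.84 in severe mice. Of the 6 letter-named integrins, 5 were called higher and 1 lower in each model with TMM. The shares of all genes were 23% and 15.1% in moderate mice, and 31.3% and 25.9% in severe mice. With library size alone 5 were called higher and 0 lower in severe mice, against 13514 and 1105 of all 18502 genes.

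Itgb7, the lymphocyte beta chain, was called higher at 1.25 (SE 0.21) and 1.06 (SE 0.21). With TMM its partner Itga4, which binds VCAM1, was called in severe mice alone, at 0.53 (SE 0.16, adjusted p = 0.00805). This value fell under the fold threshold without control 1127 (0.40), control 1246 (0.45) or severe 1047 (0.47). In moderate mice Itga4 was called higher at 0.62 in log2(TPM + 1) and 0.88 with library size alone. Itga9, a tenascin and osteopontin receptor, was called in the moderate model at 0.98 (SE 0.13, adjusted p = 1.85e-05) and had 0.47 (SE 0.13, adjusted p = 0.00489) in severe mice, which passed the threshold without control 1349 (0.62), severe 1066 (0.52) or severe 1079 (0.52). Its called difference between the models, -0.51, turned to 0.20 with library size alone and was lost without moderate 1331 (-0.42), severe 1066 (-0.45) or severe 1079 (-0.45). All 6 macrophage and other leukocyte markers, Itgam among them, were called higher in both models and none was at 0. Their sum was 59.4 to 74.1 CPM in controls, 346 to 439 in moderate and 750.1 to 863 in severe mice, and its part in these integrin values was not tested.

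Of the 4 collagen-binding subunits none was called higher in either model with TMM, and Itga1 and Itga2 were called lower in severe mice. Among all genes 23% were called higher in moderate and 31.3% in severe mice, and 25.9% lower in severe mice. Itga1, a receptor of basement membrane collagen, was 22.2, 23.1 and 21.2 CPM in controls, 16.5, 18.1 and 14.0 in moderate and 12.8, 12.2 and 12.7 in severe mice, without overlap between the 3 groups. The severe value of -0.82 (SE 0.13, adjusted p = 3.8e-05) turned to 0.33 in log2(TPM + 1) and 0.47 with library size alone, and was -0.92 to -0.36 relative to the median of all genes. The moderate value of -0.45 passed the fold threshold without control 1349 (-0.52) or moderate 1308 (-0.54). Itga2, a receptor of fibrillar collagen, had 23 to 54 counts per mouse. Its severe value of -1.01 (SE 0.30, adjusted p = 0.00788) turned to 0.06 and 0.28 under these scalings, and was -0.70 and not called without control 1349. Its difference between the models of -0.75 (adjusted p = 0.048) was not called without moderate 1236 (-0.77), moderate 1308 (-0.51) or any of severe 1047 (-0.88), 1066 (-0.58) and 1079 (-0.79). Itga10 and Itga11, of cartilage and fibroblasts, were not called with TMM, and with library size alone both were called higher in severe mice, at 1.07 and 1.16. Endothelial markers, 5 of 5 called lower in severe mice and none at 0, summed to 145 to 163 CPM in controls and 64.0 to 75.8 in severe mice. With library size alone 1 of these markers was called lower and 1 higher, with a median log2 fold change of 0.15 against -1.14 with TMM, and their part in the Itga1 and Itga2 values was not tested.

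Among laminin alpha chains, the adult muscle chain Lama2 was not called. Its level was 88.1, 87.7 and 112 CPM in controls, 117, 111 and 130.1 in moderate and 122, 129 and 124 in severe mice. Control 1349 reached the moderate range and lay below the severe one. The log2 fold changes of 0.31 (SE 0.11, adjusted p = 0.0296) and 0.38 (SE 0.11, adjusted p = 0.00687) were under the fold threshold, and both were called higher in log2(TPM + 1), at 0.67 and 1.5. Lama2 made up 51.2% ± 4.18 of the TPM of the 5 alpha chains in controls, 50.1% ± 2.83 in FLExD mice, 51.7% ± 2.97 in moderate and 53.0% ± 3.53 in severe mice (SD, n = 3). The difference from control was 0.522 percentage points in moderate mice (exact two-sided permutation p = 0.9) and 1.74 in severe mice (exact two-sided permutation p = 0.7), smaller than the spread between the mice. Fibroblasts also express Lama2, and of 4 fibroblast markers 2 were called higher (Pdgfra and Lum) and 1 lower (Dcn, which was 0.51 higher on the log2 scale with library size alone) in severe mice. Their sum was 437 to 987 CPM in controls and 914 to 1526 in severe mice, none was at 0, and their part in the Lama2 values was not tested.

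Lama4, a chain of vascular basement membranes and of developing muscle, came next in TPM at 36.8% ± 4.21 in controls, 40.6% ± 2.65 in moderate and 35.7% ± 1.85 in severe mice (SD, n = 3). Its log2 fold changes of 0.38 (SE 0.11) and 0.31 (SE 0.11) were not called with TMM. Both were called higher in log2(TPM + 1), at 0.77 and 1.38, and with library size alone, at 0.97 and 1.60. Lama5, found in mature vessels and at the synapse, was 27.1, 22.0 and 19.7 CPM in controls, 17.6, 18.9 and 18.3 in moderate and 38.3, 28.7 and 25.9 in severe mice. The moderate mice lay below all others of these 3 groups, and severe and control mice overlapped. With TMM Lama5 was called between the models alone, at 0.76 (SE 0.14, adjusted p = 0.000371). Its severe value of 0.43 passed the fold threshold without control 1127 (0.56) or severe 1079 (0.55). That value was called higher at 1.21 in log2(TPM + 1) and 1.73 with library size alone.

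Lama1, the embryonic chain, was found mainly in severe mice. All 3 controls had 0 counts, FLExD mice 1, 1 and 0, the moderate mice 4, 2 and 5 and the severe mice 66, 49 and 31. Against a floor of 3 counts per control library, the severe mean of 1.14 ± 0.374 CPM (SD, n = 3) was at least 7.74-fold higher. The moderate mean of 0.120 CPM lay below that floor of 0.147 CPM, so no fold is given, although the test called it (adjusted p = 0.0126). Severe exceeded moderate muscle by 3.19 on the log2 scale (SE 0.44, adjusted p = 8.13e-05). Lama1 passed the count filter only through the severe mice, so its tests are a description and not independent support. At this level Lama1 was 0.465% ± 0.128 of the alpha chain TPM in severe mice (SD, n = 3). The deposited TPM lists 0.04 for it in each of the controls with 0 counts.

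Lamb1, the beta chain of the main fiber laminin, was 34.3, 43.6 and 52.2 CPM in controls, 73.3, 65.4 and 69.7 in moderate and 101, 86.2 and 89.4 in severe mice. The 3 groups did not overlap, and the log2 fold changes of 0.68 (SE 0.12, adjusted p = 0.000321) and 1.09 (SE 0.12, adjusted p = 1.62e-06) were called under all 4 scalings. Lamb2, the beta chain of laminins concentrated at the neuromuscular junction, was 149, 133 and 137 CPM in controls, 113, 116 and 129.8 in FLExD mice, 101, 123 and 112 in moderate and 55.6, 69.8 and 68.1 in severe mice. Whole-muscle levels do not show where its RNA lies. The severe mice lay below all others. Its severe value was -1.11 (SE 0.11, adjusted p = 3.06e-07), and severe lay below moderate muscle by -0.80 (SE 0.11, adjusted p = 3.66e-05). The severe value turned to 0.07 in log2(TPM + 1) and 0.17 with library size alone, neither called, and was -1.22 to -0.63 relative to the median of all genes over the 4 scalings.

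The share of Lamb2 in beta chain TPM was 73.6% ± 3.97 in controls, 70.9% ± 3.40 in FLExD mice, 59.6% ± 3.43 in moderate and 40.1% ± 4.78 in severe mice (SD, n = 3). The ranges of 70.3% to 78.0% in controls, 56% to 62.8% in moderate and 34.7% to 43.7% in severe mice did not overlap. The difference from control was -13.9 percentage points in moderate and -33.4 in severe mice, and -19.5 between the models (exact two-sided permutation p = 0.1 for each, the smallest possible, and 0.2 adjusted over 12 tests). Leaving out any 1 mouse kept the severe difference between -35.2 and -30.7 points. Lamb2 exceeded Lamb1 in TPM in all 9 control, FLExD and moderate mice, and Lamb1 exceeded Lamb2 in all 3 severe mice. Schwann cell markers, of which 3 of 4 were called lower in severe mice, summed to 6.90 to 14.3 CPM in controls and 1.82 to 3.73 in severe mice, with Pmp2 at 0 there and 1 called lower with library size alone; their part and that of the endothelial markers in the Lamb2 values was not tested.

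**Figure D3:**
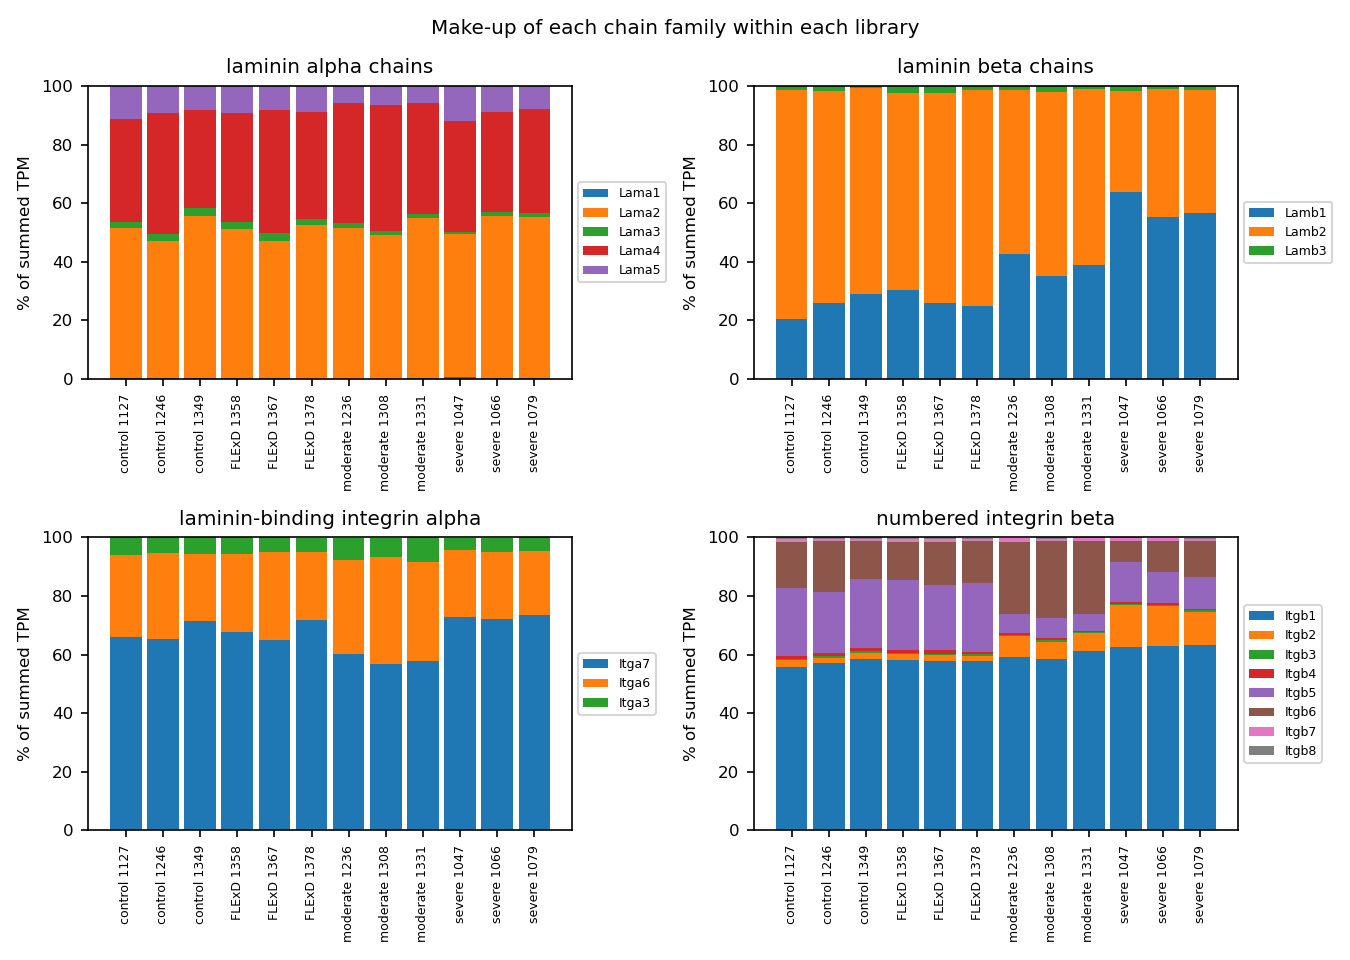
Percent of summed TPM (y axis) that each gene takes within its family in each mouse (x axis), for laminin alpha chains, laminin beta chains, laminin-binding integrin alpha subunits and numbered integrin beta subunits. The mean Lama2 share is 51.2% of alpha chains in controls and 53.0% in severe mice, while that of Lamb2 is 73.6% and 40.1% of beta chains.

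Lamc1, the gamma chain shared by most laminins, was 94.6, 95.6 and 122 CPM in controls, 179, 201 and 191 in moderate and 157, 159.6 and 153 in severe mice. It was called higher at 0.87 (SE 0.12, adjusted p = 2.18e-05) and 0.59 (SE 0.12, adjusted p = 0.000405) on the log2 scale, and no mouse of either model overlapped the controls. Lama2 stood at 72.7 ± 2.99 TPM per 100 TPM of Lamc1 in controls, 46.0 ± 6.08 in moderate and 62.8 ± 2.56 in severe mice (SD, n = 3), without overlap between the 3 groups. As with Itga7 per Itgb1, the moderate mice were lowest; both ratios were chosen after the values were seen and are given as a description.

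**Figure D4:**
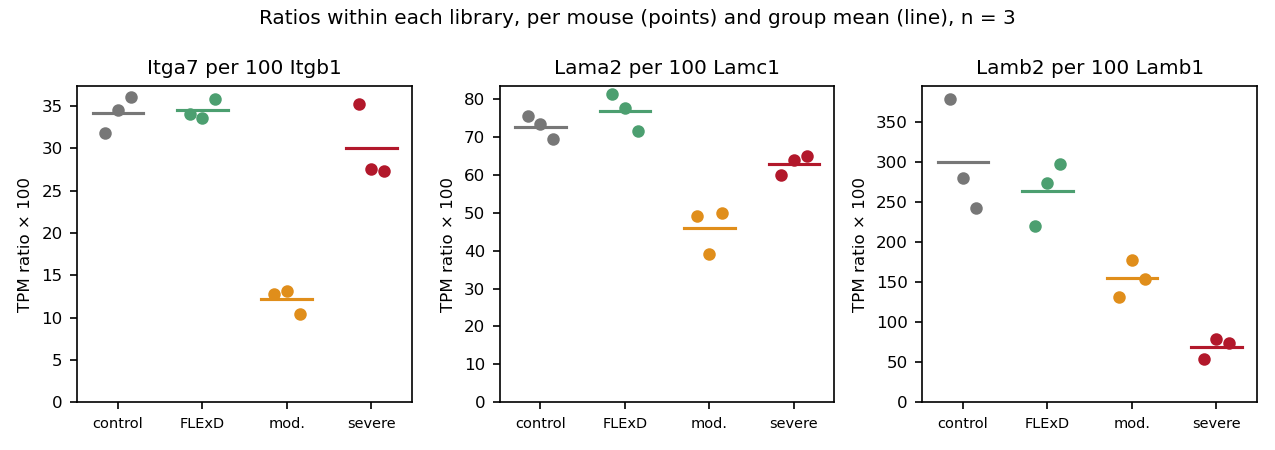
TPM of Itga7 per 100 TPM of Itgb1, of Lama2 per 100 of Lamc1 and of Lamb2 per 100 of Lamb1 (y axes, from 0) in each mouse (points) with the group mean (line), n = 3 a group. The Itga7 and Lama2 ratios are lowest in the 3 moderate mice, and the Lamb2 ratio is lowest in the severe mice, at a mean of 69.2 against 301 in controls.

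The remaining laminin chains are known mainly from epithelia and other tissues. Lamb3 was not called with TMM, at 0.17 (SE 0.35) and -0.25 (SE 0.35). Lama3 was called lower at -0.56 (SE 0.22, adjusted p = 0.0494) and -0.80 (SE 0.22, adjusted p = 0.0049), values that turned to 0.03 and 0.48 with library size alone. The moderate call of Lama3 was lost without control 1349 (-0.36) or any of moderate 1236 (-0.53), 1308 (-0.52) and 1331 (-0.66). Lamc3 had 11.9 to 17.1 counts in controls, 3.83 to 8.45 in FLExD mice and 3 to 8 in the models, and was called lower at -2.29 (SE 0.40) and -2.24 (SE 0.38); in log2(TPM + 1) it was -0.11 and -0.07, not called, at 0.06 to 0.18 TPM in all mice. Of 4 epithelial markers, Krt5, Krt14 and Epcam did not pass the count filter and Cdh1 was not called.

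Between FLExD and control mice no member was called by edgeR in either direction, against 0% of all genes called higher and 0.0054% called lower. At an unadjusted p under 0.05 edgeR gave 4 members, Lamc3 at -1.13, Itga11 at -0.40, Itga9 at -0.31 and Lama2 at -0.26. Of all 18502 genes, 715 (3.86%) passed that cutoff in edgeR. DESeq2 gave 3 and limma on log2(TPM + 1) 0, for which no share of all genes is given, and neither called a member. The shares of Itga7, Lama2 and Lamb2 differed from control by 0.590, -1.08 and -2.68 percentage points (exact two-sided permutation p = 0.8, 0.7 and 0.5).

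Of 14 listed ligands of the integrins, 10 were tested, and 8 were called higher and 1 lower in each model, against 23% and 15.1% of all genes in moderate and 31.3% and 25.9% in severe mice. They had a median log2 fold change of 1.90 in moderate and 3.00 in severe mice, where that of all genes was 0.05 and 0.10. With library size alone 8 were called higher in moderate and 9 in severe mice, and 0 lower. Of all 18502 genes that scaling called 9046 higher and 773 lower in moderate mice, and 13514 and 1105 in severe mice. Osteopontin (Spp1), bound by Itga9 and RGD integrins, had means of 1.16 CPM in controls, 39.0 in moderate and 164 in severe mice. Periostin (Postn), a matrix protein, had 13, 188 and 797 CPM. Nephronectin (Npnt), the ligand of Itga8, had 1.64, 8.04 and 27.3 CPM. All 3 were called higher in both models. Vitronectin (Vtn), the ligand of Itgb5 heterodimers, was called lower at -0.69 (SE 0.14) and -1.27 (SE 0.15), and the severe value was 0.02 with library size alone.

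Of 24 adhesion partners tested, 13 were called higher and 4 lower in moderate, and 12 and 5 in severe mice, against 23% and 15.1% of all genes in moderate and 31.3% and 25.9% in severe mice. Higher and lower calls with library size alone numbered 15 and 0 in moderate and 20 and 1 in severe mice. Of all 18502 genes that scaling called 9046 and 773 in moderate mice, and 13514 and 1105 in severe mice. The genes with the largest severe increases were Parvg (4.99, SE 0.35), Fermt3, the kindlin of blood cells (3.52, SE 0.16), and the kinase Ptk2b (2.85, SE 0.18). Parvg had only 2 to 4 counts in controls, near the floor of 3, so the size of its fold is uncertain. The largest decreases were those of the adaptor Lims2 (-2.0, SE 0.19), the kindlin Fermt2 (-1.64, SE 0.08) and the talin Tln2 (-1.33, SE 0.10). With library size alone these 3 were -0.71, -0.35 and -0.04. Of 20 basement membrane partners and other laminin receptors, 9 were called higher and 2 lower in moderate, and 7 and 4 in severe mice, the severe counts being near the shares of all genes. Higher and lower calls with library size alone numbered 13 and 0 in moderate and 17 and 1 in severe mice, against the same counts of all genes under that scaling. The matrix genes Sparc, Col18a1 and Nid2 rose 2.96-, 2.78- and 2.39-fold in severe mice. Sgca, a sarcoglycan of the dystrophin complex, was called lower at -2.22 (SE 0.14) and the basement membrane collagen Col4a3 at -1.71 (SE 0.21). With library size alone they were -0.94 and -0.43.

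**Figure D5:**
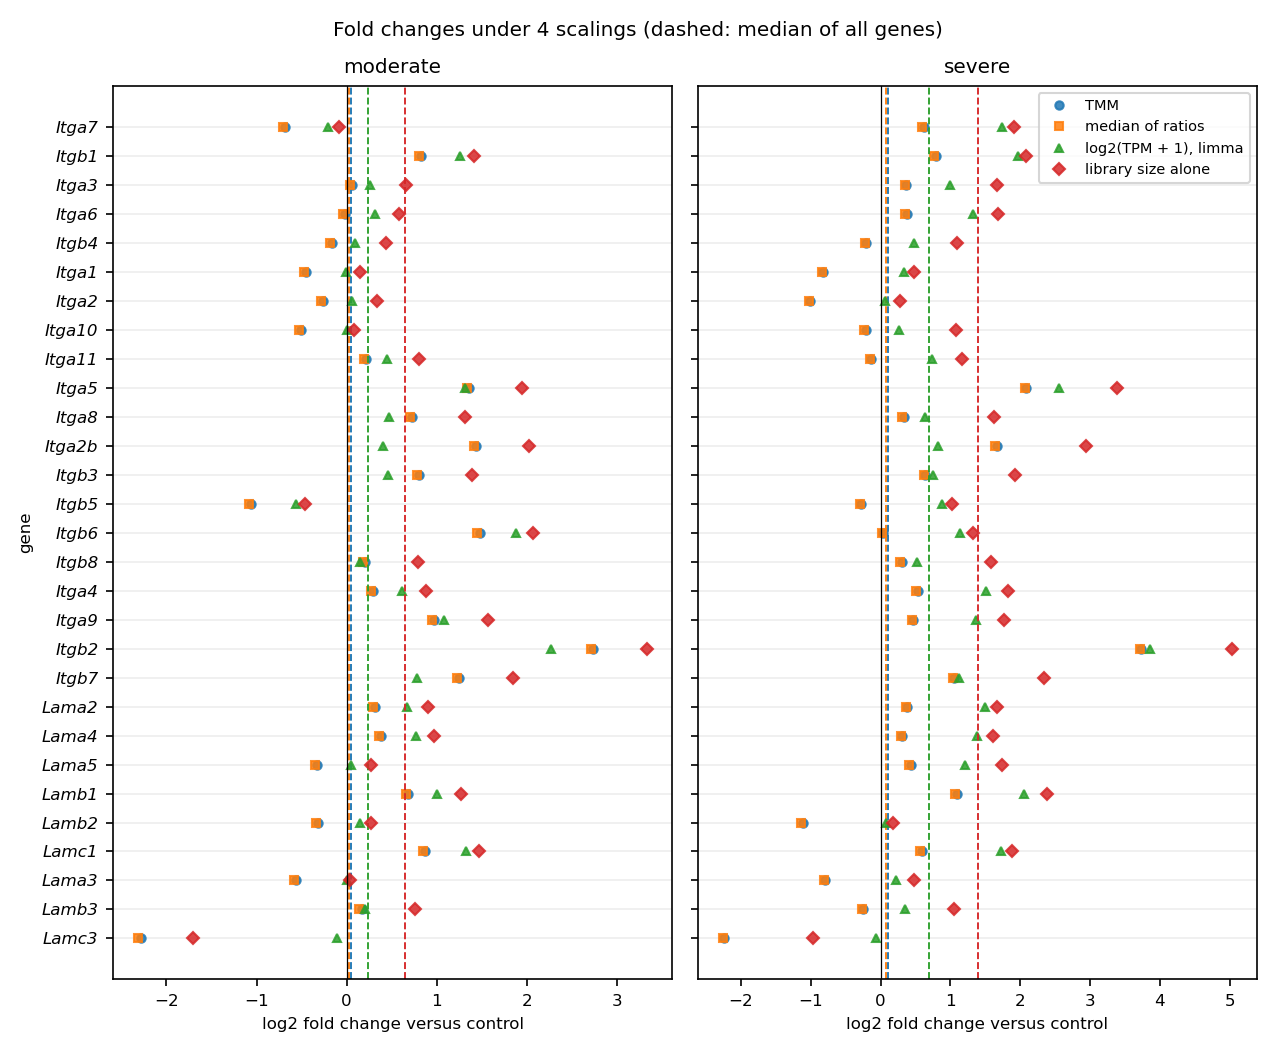
Log2 fold change against control (x axes) of the same genes (y axis; Lama1 is left out because controls are at 0 counts) in moderate and severe models under 4 scalings (markers), with dashed lines at the median of all genes under each. TMM and median-of-ratios values nearly coincide, and with library size alone the severe median of all genes is 1.39, Lamb2 is at 0.17 and Itga7 at 1.92.

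Positions are those of GENCODE M21 for GRCm38 (mm10), which holds all 31 members. Itga7 is ENSMUSG00000025348, chr10:128933818-128958282, plus strand, Itgb1 is ENSMUSG00000025809, chr8:128685654-128733200, plus strand, Lamb1 is ENSMUSG00000002900, chr12:31265234-31329644, plus strand and Lamb2 is ENSMUSG00000052911, chr9:108479736-108490530, plus strand. Exonic bases of 9 members are shared with another gene, most for Itga10 (33.5% with Gm42957 on the same strand) and Itga4 (8.04% with Cerkl on the opposite strand), and without strand such reads cannot be told apart. Itga7 shares 0.111% with Mettl7b, and neither Lamb1 nor Lamb2 shares any.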

How the data were processed

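Poly(A) RNA of 12 gastrocnemius muscles was sequenced as 50-base single-end reads; the strand setting is not given in the sources used here. The authors aligned reads with RSEM 1.2.4 (calling Bowtie) and TopHat2 2.0.8b to mm10 and deposited RSEM expected counts per gene, which need not be whole and were rounded here. The authors also deposited TPM, which sum to nearly the same total in each library. Groups came from the labels. Rounded counts of genes with at least 5 counts in at least 3 mice were fitted for all 4 groups together with edgeR 4.0.16 (R 4.3.3; TMM, robust quasi-likelihood test, Benjamini-Hochberg adjustment); SE is the absolute log2 fold change over the root of F. TPM were tested with limma 3.58.1 on log2(TPM + 1), and DESeq2 1.42.0 was an alternative. The fit was tested on simulated data in which few genes changed, with equal sizes up and down. That test does not cover the large differences in scaling between these groups. Shares of TPM were compared by exact two-sided permutation. Libraries held 23796902 to 29136403 counts; floors of 3 counts cover counting error only. Named genes were the members and, from each partner list, up to 3 called genes with the largest increase and up to 3 with the largest decrease in the severe model. Results for some genes these rules name are not reported here. Members and lists were chosen with earlier results of these data known. Alternatives were library size alone, median-of-ratios size factors, other filters, only the 2 groups compared, other fold thresholds, summed counts for shares, and each mouse left out.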

Additional observations from a re-analysis of the deposited data

Results flagged for a closer look

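Itga7 was picked out because its difference from the same control mice ran in opposite directions in the 2 models. The edgeR test between the models gave 1.30 on the log2 scale (SE 0.11, adjusted p = 1.32e-06). All 3 severe mice were higher than every moderate mouse. Opposite calls in the same mice already imply a difference between the models, so this test gives its size and is not further support. The value against control was -0.68 in moderate and 0.62 in severe mice. The difference between the models was 1.94 in log2(TPM + 1) and 2.0 with library size alone, both called, whereas the moderate value was then -0.20 and -0.09 and not called, and the severe value was 0.50 without severe mouse 1047. No group had 4 or more mice, so single mice standing apart within a group were not tested for.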

How the results depend on the processing

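No paired analysis was possible because no replicate number is shared between groups. Counts of called members were 17 in moderate mice, 17 in severe mice and 10 between them. With library size alone, 20 were called higher and 1 lower in moderate mice, 26 and 1 of 27 in severe mice, and 16 and 1 of 17 between the models. In log2(TPM + 1) with limma, 1 was called lower in moderate mice, 22 higher and 0 lower in severe mice, and 12 higher and 1 lower between them. Counts of all genes under both scalings are given above with those of the members. With a fold threshold of 1 on the log2 scale, 9 were called in moderate mice (7 higher, 2 lower), 10 in severe mice (7 and 3), and 3 between them (2 and 1). Members called lower between the models numbered 2 without a count filter and 2 when only those 2 groups were fitted. Among all genes, 2874 of 28033 and 3098 of 18502 were called lower in those fits. Leaving out 1 mouse gave 15 to 16 called in moderate mice (12 higher, 3 to 4 lower), 14 to 18 in severe mice (9 to 13 and 4 to 5) and 8 to 10 between them (6 to 7 and 2 to 3; 2 lower without severe 1066 or severe 1079, where Itga2 and Itga9 were lost). With median-of-ratios size factors or DESeq2 the counts were 13 and 4, 11 and 5, and 6 and 4. Of all 18502 genes, median-of-ratios size factors gave 4112 and 2980, 5692 and 4891, and 3022 and 3169. DESeq2 gave 4006 and 2941, 5492 and 4833, and 2812 and 3136. Shares of all genes are not given for the fold threshold of 1 or for the fits with a mouse left out.

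Of the 93 values of single members (31 in each of 3 comparisons), those that changed direction and were called with TMM or under the alternative did so with library size alone (14) or in log2(TPM + 1) (10). Values called under neither also changed sign, 16 with library size alone, 18 in log2(TPM + 1), 13 when a mouse was left out and 2 without a count filter. Of those called under either, with library size alone Itga6 was 0.58 and Lama3 0.0342 in moderate mice. In the severe model, Itgb4 was 1.09, Itga1 0.47, Itga2 0.28, Itga10 1.07, Itga11 1.16, Itgb5 1.02, Lamb2 0.17, Lama3 0.48 and Lamb3 1.05. Between the models, Itgb1 was 0.66, Itga9 0.20 and Lama4 0.63. In log2(TPM + 1), the severe values were 0.33 for Itga1, 0.0604 for Itga2, 0.73 for Itga11, 0.88 for Itgb5, 0.0735 for Lamb2 and 0.22 for Lama3, and between the models 0.70 for Itgb1, 0.00379 for Itga2, 0.28 for Itga9 and 0.61 for Lama4. The 12 share comparisons moved by less than 1 SD between mice under all 7 of their alternatives, although 5 changed sign, and with 3 mice a group none can reach 0.05. Depth limits Lama1, Lamc3, Itga2, Itga2b and Itgb3, which had few counts per mouse. It also limits Parvg, a partner gene with 2 to 4 counts in controls, and Itgax, Itgal and Itgad, which had few counts there.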
